A study of Homo sapiens with 2 samples.

Results

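Interleukin 11 and its relatives signal through a shared receptor chain, gp130, and the transcription factor STAT3, and 10 genes of this route were examined on the arrays of cells with IRX1::GFP and with GFP alone. All probe sets whose platform annotation gives exactly 1 of the 10 symbols were taken, which yielded 31 of 54675 probe sets and 9 genes of 19775 named genes. CLCF1, which encodes a cytokine of the same family, had no probe set with its symbol in the annotation used and was not analysed here. The genes were chosen by their role with the ratio of both arrays already known, IL11 for its place among the most raised genes, so their values are a description and no test was made. IL11 and STAT3 were also singled out by the study from this experiment, STAT3 among its upregulated transcription factors. A shared direction is therefore not independent evidence, and the probe sets of STAT3 disagreed, as given below.

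HEK293T, a line derived from human embryonic kidney that makes the simian virus large T antigen, was transiently transfected with polyethylenimine, and GFP-positive cells were sorted after 48 h. One set of cells carried pcDNA3.1-IRX1::GFP, a plasmid for the homeobox protein IRX1 joined to GFP, and the control set pcDNA3.1-GFP. Each condition was measured on 1 Affymetrix HG-U133 Plus 2.0 array, although a legend of the study speaks of replicates, and whether an array holds a single culture or a pool is not known. The comparison asks which genes differ in signal in this line when IRX1::GFP is introduced.

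Cytokines of the interleukin 6 family signal through gp130, encoded by IL6ST, which pairs with itself or with a second signalling chain. Janus kinases held by these chains phosphorylate them, STAT3 docks, is phosphorylated and enters the nucleus, and SOCS3 is made in turn and shuts the receptor down. Interleukin 11 is known for its part in megakaryocyte growth and in stromal and epithelial tissues, LIF for keeping mouse embryonic stem cells undifferentiated.

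A probe set is a group of short probes for one transcript, and MAS5 condenses it to a linear intensity, its signal, scaled so that both arrays had nearly the same trimmed mean. Log2 ratios put IRX1::GFP on top, and positive ones belong to higher IRX1::GFP signals. Olfactory receptor genes, which kidney lines are not known to use, served as background, taken as the 90th percentile of their 107 probe sets. It was 179 with IRX1::GFP and 143 in the GFP control. A fold is given where both signals were above it, as a lower bound where 1 was and the bound was above 1, and not otherwise. Probe sets with a mean signal of 183 or more, the median of all probe sets, passed the filter. A gene was represented by its brightest probe set. With 1 array per condition no error between cultures can be given, and the only spread at hand is the SD among the probe sets of a gene, 0.49 on the log2 scale over 5930 genes, which leaves out differences between cultures.

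The labels could not be checked through IRX1, whose only named probe set read 57.0 with IRX1::GFP and 33.1 in the GFP control, both under background. Of 10 genes known from the HEK293 lineage, 9 were above background with IRX1::GFP and 8 in the GFP control. Of 4 leukocyte genes, 1 was above it with IRX1::GFP and 2 in the GFP control. PTPRC was under it on both arrays, and CD14 above it on both, at 856 with IRX1::GFP and 327 in the GFP control. Of 4 fibroblast genes, 1 was above background with IRX1::GFP and 3 in the GFP control. COL1A1 read 2571 with IRX1::GFP and 631 in the GFP control and made up most of their sum, while the other 3 had the lower signal with IRX1::GFP. The ratio of the 3-prime to the 5-prime control probe set of ACTB, a sign of RNA quality, was 1.64 with IRX1::GFP and 3.23 in the GFP control. For GAPDH the same ratio was 1.01 with IRX1::GFP and 1.22 in the GFP control. The part of RNA quality in the values below was not tested. In bulk RNA, fewer cells with a transcript and less of it per cell cannot be told apart.

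Of the 9 genes, 7 passed the filter on dim signals and OSMR and JAK2 did not. IL11 alone among the 7 exceeded 2-fold on the higher side, and no member did so on the lower side. Over all 12193 genes past the filter the shares were 10.4% higher and 5.34% lower, and since the members were chosen on this contrast nothing is read from their count. By probe set, 16 of 31 passed, of which 2 were at least 2-fold higher, 1 of IL11 and 1 of STAT3, and none lower, against 9.15% higher and 6.02% lower among 22633 named probe sets. A probe set that was dim on 1 array could pass only through the other, as IL11 did, and the 7 genes are therefore not all members. Their median log2 ratio was 0.50 and that of all genes past the filter 0.07. Of the 16 probe sets, 8 had a higher and 8 a lower signal with IRX1::GFP. By gene, IL11, LIF, IL11RA, STAT3 and SOCS3 lay on the higher side and IL6ST and JAK1 on the lower side, and the probe sets of JAK1 and STAT3 were divided.

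**Figure D1:**
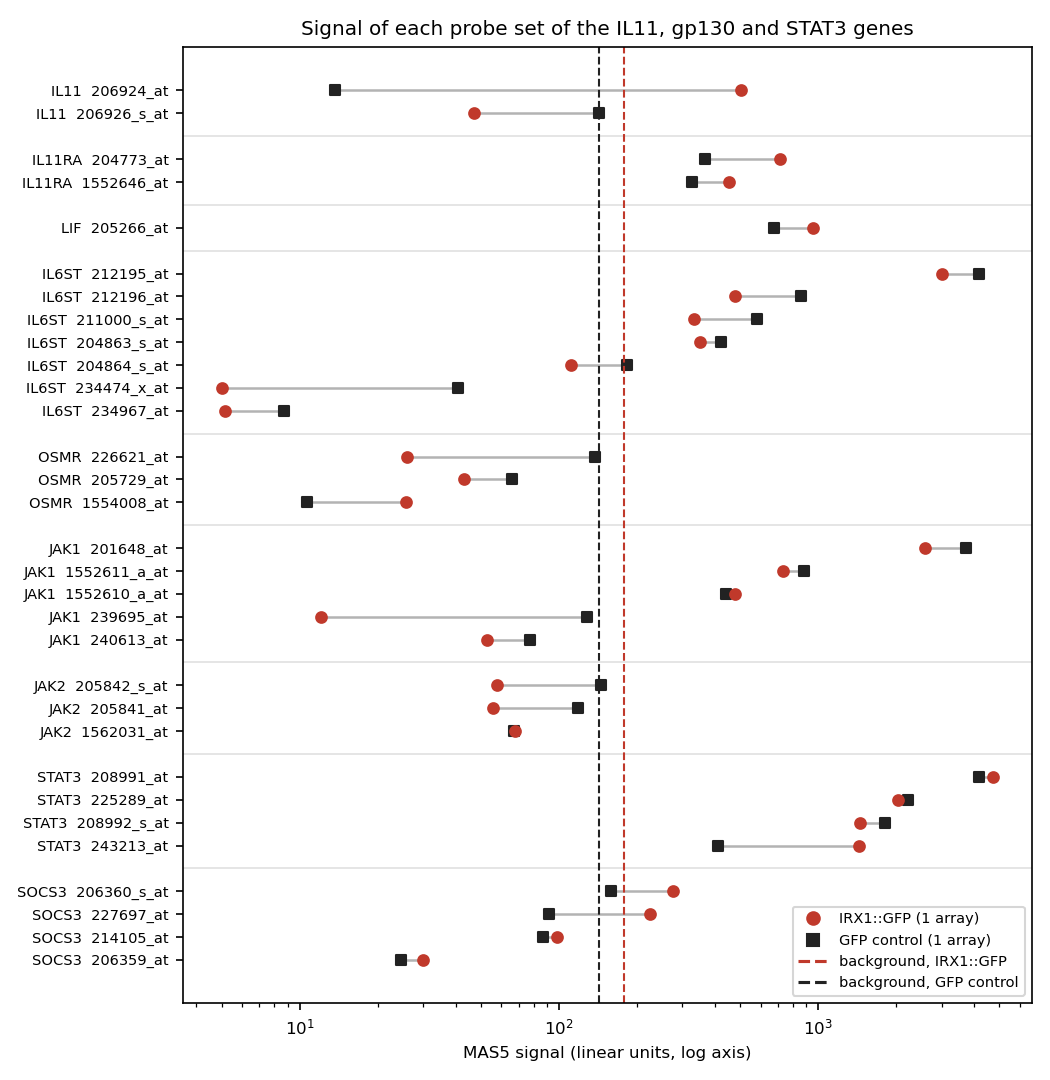
MAS5 signal (x, log axis) of each of the 31 probe sets (y) on the single array of each condition, with IRX1::GFP as red circles, GFP control as black squares and dashed lines marking both background levels. The probe set 206924_at of IL11 has its red circle at 504 and its black square far under background, the 7 probe sets of IL6ST all have the red circle on the left, and all OSMR and most JAK2 signals lie under background.

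The promoter sequences of IL11, IL6ST and STAT3 are shown because each gene stands for one of the behaviours described below. IL11 had the only gene ratio beyond 2-fold past the filter, IL6ST was lower on every probe set, and the probe sets of STAT3 disagreed. Each sequence is the stretch of 250 bases before the annotated start, 5′ to 3′ on the gene's own strand, from RefSeq on GRCh38.p14. Capitals mark matches on either strand to 4 letter strings: TGAGTCA, known as an AP-1 site, TTCNNNGAA, known as a STAT site, ACANNTGT, described for Iroquois proteins of the fly, and GGGCGG, the GC box. Matches of the GC box can overlap each other and then form one longer run of capitals.
IL11 promoter, chr19:55370464-55370713, minus strand: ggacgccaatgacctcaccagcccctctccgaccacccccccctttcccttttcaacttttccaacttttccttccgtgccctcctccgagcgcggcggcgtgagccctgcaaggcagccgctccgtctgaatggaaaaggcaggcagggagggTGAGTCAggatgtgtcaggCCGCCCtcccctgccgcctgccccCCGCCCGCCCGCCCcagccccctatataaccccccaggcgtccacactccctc
IL6ST promoter, chr5:55994964-55995213, minus strand: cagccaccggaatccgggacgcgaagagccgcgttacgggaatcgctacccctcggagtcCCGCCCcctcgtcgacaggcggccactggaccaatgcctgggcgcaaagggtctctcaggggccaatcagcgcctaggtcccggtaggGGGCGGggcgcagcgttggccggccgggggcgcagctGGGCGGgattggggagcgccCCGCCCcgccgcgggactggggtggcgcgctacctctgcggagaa
STAT3 promoter, chr17:42388443-42388692, minus strand: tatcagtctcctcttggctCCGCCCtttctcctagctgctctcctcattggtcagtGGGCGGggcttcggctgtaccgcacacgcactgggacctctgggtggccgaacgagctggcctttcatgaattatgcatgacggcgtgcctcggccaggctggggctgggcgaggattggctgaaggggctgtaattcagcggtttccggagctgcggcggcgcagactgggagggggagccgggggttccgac

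RefSeq windows were at hand for 8 of the 10 genes, 15 windows in all, since some genes have several annotated starts. The AP-1 letters were found in the window of IL11 only, from 96 to 90 bases before the start, and 4.2% of 35116 windows of this length hold them. The STAT letters were in none of the 15, against 6.57% of all windows, and the Iroquois letters in 1 window of JAK2, against 4.71%. The GC box was in 8 of the 15 and in 42.6% of all windows. A match is a description of the letters and not a binding site.

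Among the ligands, IL11 had the largest ratio of the 9 genes. Its probe set 206924_at read 504 with IRX1::GFP and 13.7 in the GFP control, which was at least 3.52-fold higher when the control signal, under background, is set at the background level. The bound depends on that level and was 2.98-fold with the background at the 95th percentile and 2.77-fold with the floor used as an alternative. As measured the log2 ratio was 5.20, the highest but 6 of 12193 genes, but a ratio against so dim a signal has no fixed size. The other probe set of IL11, 206926_s_at, read 47.2 with IRX1::GFP and 143 in the GFP control, the opposite order, with neither signal above background. The gene value of IL11 thus rests on 1 of its 2 probe sets. The genes next to IL11 in the order of log2 ratios were of the same kind. LRRC10B and CATSPERG stood just above it, by 0.50 and 0.44 on the log2 scale, and KIF25 and TDRG1 just below it, differing by -0.03 and -0.24. All of them had a control signal under background, between 8.91 and 24.5. Likeness over only 2 arrays is no more than a similar ratio.

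LIF, a ligand of gp130 with the LIF receptor, had a single probe set. It read 955 with IRX1::GFP and 677 in the GFP control, 1.41-fold higher, a log2 ratio of 0.50 that is about that SD among probe sets of a gene. Both of its signals were above background, unlike those of IL11.

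Among the receptors, IL11RA, which binds interleukin 11 before gp130 joins, had a higher signal on each of its 2 probe sets. The brighter read 716 with IRX1::GFP and 367 in the GFP control, 1.95-fold higher and just inside the limit of 2-fold, and the other 453 with IRX1::GFP and 327 in the GFP control, 1.38-fold higher. Their log2 ratios, 0.97 and 0.47, lay above and about at that SD among probe sets of a gene. Of all genes past the filter, 88.7% had a lower ratio than IL11RA.

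IL6ST, the chain that receptors of the family share, was lower with IRX1::GFP on all 7 of its probe sets. The brightest read 3006 with IRX1::GFP and 4173 in the GFP control, 1.39-fold lower. The next read 480 with IRX1::GFP and 859 in the GFP control, 1.79-fold lower. The third read 332 with IRX1::GFP and 583 in the GFP control, 1.76-fold lower, and the fourth 350 with IRX1::GFP and 424 in the GFP control, 1.21-fold lower. All 4 that passed the filter were within 2-fold, with log2 ratios between -0.84 and -0.28, and their SD of 0.27 was close to the median of 0.29 over genes with more than 1 such probe set. The other 3 were dim. One read 111 with IRX1::GFP and 183 in the GFP control, at least 1.03-fold lower, and the rest were under background on both arrays, at 5.01 and 5.14 with IRX1::GFP and 40.9 and 8.73 in the GFP control. The log2 ratio of IL6ST was -0.47 on the brightest probe set. The 7 probe sets read the same pair of RNA samples and are not replicates of the condition.

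OSMR, the second signalling chain for oncostatin M, had no signal above background on either array. Its 3 probe sets read 26.1, 43.0 and 25.8 with IRX1::GFP and 138, 66.2 and 10.7 in the GFP control, in the same order of probe sets. They disagree in direction, no fold is given, and OSMR was not detected at this level in either condition.

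**Figure D2:**
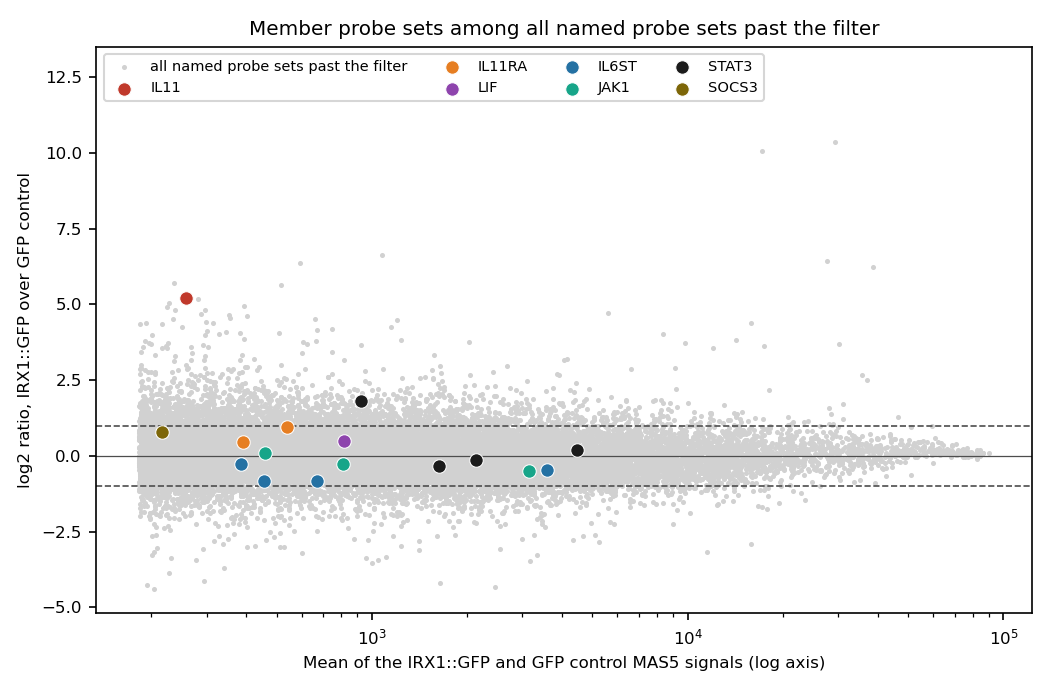
Log2 of the IRX1::GFP signal over the GFP control signal (y) against the mean of both MAS5 signals (x, log axis) for the 22633 named probe sets past the filter (grey) and the 16 of the member genes (coloured), from a single pair of arrays, where dashed lines mark 2-fold. IL11 lies high at the dim end, 1 STAT3 probe set lies above the upper line, and the others lie between the lines.

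Of the kinases, JAK1, which serves gp130 in most cells, had its brightest probe set 1.43-fold lower, at 2597 with IRX1::GFP and 3710 in the GFP control. A second probe set was 1.21-fold lower, at 733 with IRX1::GFP and 887 in the GFP control. The third that passed the filter read 477 with IRX1::GFP and 443 in the GFP control, 1.08-fold higher. JAK1 thus had 2 lower and 1 higher probe set, all within 2-fold, and its other 2 were under background, at 12.1 and 53.1 with IRX1::GFP and 129 and 77.4 in the GFP control. JAK2, a second kinase of these receptors, was near or under background throughout. Its 3 probe sets read 57.8, 55.9 and 67.8 with IRX1::GFP and, in the same order, 145, 118 and 67.3 in the GFP control. The single signal above background, 145 in the GFP control, was under the IRX1::GFP background of 179, so no bound on the fold is given.

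STAT3, the transcription factor at the end of this route, had 4 probe sets, all above background on both arrays, and they disagreed. The brightest, 208991_at, read 4750 with IRX1::GFP and 4175 in the GFP control, 1.14-fold higher. The probe set 225289_at read 2040 with IRX1::GFP and 2233 in the GFP control, 1.09-fold lower, and 208992_s_at read 1448 with IRX1::GFP and 1809 in the GFP control, 1.25-fold lower. Only 243213_at departed from these, at 1438 with IRX1::GFP and 410 in the GFP control, 3.50-fold higher. The log2 ratios spanned 2.13 and had an SD of 0.97, and 4.23% of the 5930 genes with more than 1 probe set past the filter had an SD as large or larger. The 3 brighter probe sets were thus within 2-fold and on both sides of 0, and only the dimmest of the 4 exceeded 2-fold. Which part of the transcript each probe set measures is not given in the sources used here.

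SOCS3, the inhibitor that STAT3 is known to switch on, was dim. Its brightest probe set read 275 with IRX1::GFP and 159 in the GFP control, 1.72-fold higher, with the control signal only just above background. A second probe set read 226 with IRX1::GFP and 91.8 in the GFP control, at least 1.57-fold higher. The remaining pair read 98.8 and 29.9 with IRX1::GFP and 87.1 and 24.7 in the GFP control, all under background. All 4 probe sets of SOCS3 were on the higher side, and only the brightest passed the filter.

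The wider pathway was described through 7 lists, chosen with earlier results of these data known, and each list is read against 10.4% higher, 5.34% lower and a median log2 ratio of 0.07 over all genes. Of 10 ligand genes of the family, 8 were named on the array and only IL11 and LIF passed the filter. OSM, which encodes oncostatin M, read 264 with IRX1::GFP and 23.0 in the GFP control on its brightest probe set, at least 1.84-fold higher, and did not pass the filter. Its other probe set was under background on both arrays and had the opposite order, as with IL11. Of 7 receptor genes, 6 passed, 1 was at least 2-fold higher and none lower, with a median of 0.89. The one beyond 2-fold was IL27RA, the receptor of interleukin 27, at 550 with IRX1::GFP and 190 in the GFP control, 2.90-fold higher, and 2.18-fold higher on a second probe set. IL6ST and LIFR were the only receptors past the filter with a lower signal on their brightest probe set. That of LIFR read 318 with IRX1::GFP and 520 in the GFP control, 1.64-fold lower. The next brightest probe set of LIFR read 180 with IRX1::GFP, just above background, and 499 in the GFP control, 2.77-fold lower. The remaining LIFR probe sets past the filter were 1.46-fold lower and 1.11-fold higher.

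Neither of the 2 kinases past the filter was beyond 2-fold, and JAK3, which acts with cytokine receptors of lymphocytes, read 258 with IRX1::GFP and 98.2 in the GFP control, at least 1.80-fold higher but under the filter. All 5 STAT genes named and past the filter were within 2-fold, with log2 ratios between -0.29 and 0.64. Of 15 inhibitors, all of which passed, 1 was higher and 1 lower at 2-fold, and their median was -0.02. CISH, a feedback inhibitor of the SOCS family, read 819 with IRX1::GFP and 273 in the GFP control, 3.0-fold higher. Its second probe set past the filter read 469 with IRX1::GFP and 398 in the GFP control, 1.18-fold higher, so that the call rests on 1 of the 2. SOCS6, a member of the same family, read 423 with IRX1::GFP and 1145 in the GFP control, 2.71-fold lower. Of 6 adaptors that link gp130 to other routes, GAB2 was lower, at 145 with IRX1::GFP and 619 in the GFP control, at least 3.47-fold.

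Of 22 genes known as STAT3 targets, 17 passed the filter, of which 6 exceeded 2-fold on the higher side and 1 on the lower side, with a median log2 ratio of 0.80. These targets answer to many other signals too, so that their count is not a measure of STAT3. The largest ratio past the filter was that of CCND1, which encodes cyclin D1. It read 716 with IRX1::GFP and 155 in the GFP control, 4.62-fold higher, with the control signal only just above background. The second CCND1 probe set read 567 with IRX1::GFP and 93.2 in the GFP control, at least 3.95-fold higher. IER3, an early response gene, came next at 9081 with IRX1::GFP and 2382 in the GFP control, 3.81-fold higher. BCL2L1, which encodes the survival protein BCL-X, was 3.45-fold higher, at 789 with IRX1::GFP and 229 in the GFP control. A second BCL2L1 probe set past the filter read 388 with IRX1::GFP and 383 in the GFP control, 1.01-fold higher, so that this call too rests on 1 of 2. CEBPB, a transcription factor of the acute phase response, was 2.47-fold lower, at 5003 with IRX1::GFP and 12361 in the GFP control. The same arrays showed log2 ratios of 0.21 to 1.24 for the ACTB and GAPDH control probe sets, all on the higher side, and their bearing on these lists was not tested.

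**Figure D3:**
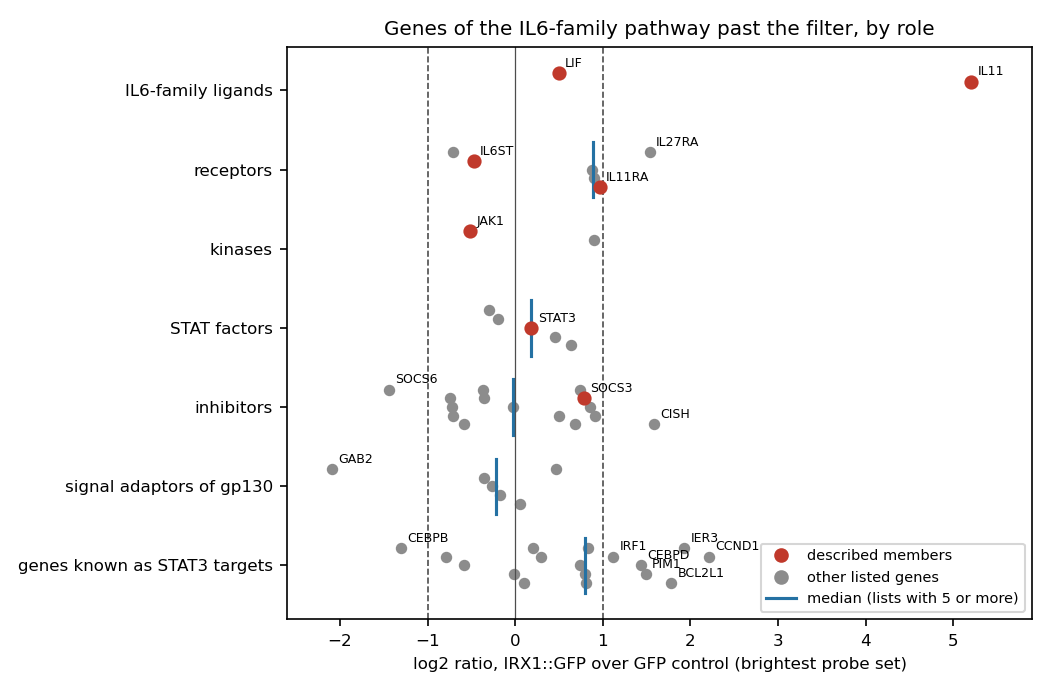
Log2 of the IRX1::GFP signal over the GFP control signal (x) for the genes past the filter in each of 7 lists (y), from a single pair of arrays, with members in red, other listed genes in grey, blue bars at the medians of lists with 5 or more genes and dashed lines at 2-fold. IL11 is drawn at its measured 5.20, which is set against a control signal under background. Its bound is 1.81 on the log2 scale, under the 2.21 of CCND1, whose own control signal was only just above background. The inhibitors spread on both sides of 0, and 6 of 17 STAT3 target genes lie beyond the upper line.

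The ratios of the members moved little with the scaling of the arrays. After median centring, quantile normalization or loess the log2 ratio of IL11 was between 4.99 and 5.13, and IL11RA, LIF, IL6ST, JAK1, STAT3 and SOCS3 kept their sign and stayed within 2-fold. What did move IL11 was the treatment of its dim signals. With low signals raised to a floor its log2 ratio was 1.47. As the mean over both of its probe sets, an alternative chosen after the data were seen, it was 1.80.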

How the data were processed

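RNA of GFP-sorted HEK293T cells was hybridised to 1 array per condition, and the authors deposited 1 intensity per probe set, not log transformed, computed with MAS5 as the submitters' processing notes name it. Trimmed of its lowest and highest 2%, either array had a mean of 1000.1. The MAS5 version is not given in the sources used here. Symbols came from the platform annotation. Of 54675 probe sets, 41097 had 1 symbol, 1801 several and 11777 none here, and symbols were updated through the RefSeq gene table of GRCh38.p14, in which 41043 were found. The log2 ratio of the deposited signals was taken, the brightest probe set standing for a gene, with a filter at the 50th percentile. No test was made, as either condition has 1 array, and precision is limited by this number of arrays.

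The members, the lists and the rules were chosen with earlier results of these data known. Named genes are the members, up to 3 other genes of each list in each direction beyond 2-fold with a signal above background, the 2 genes on each side of IL11 in the order of ratios, and IRX1. LIFR, LIF-AS2, IL6ST-DT and the letter strings searched were picked with values in view. Alternatives tried were median centring, quantile normalization, loess (span 0.3), other filters, a floor, the mean over probe sets, leaving out probe sets whose name marks shared probes, and backgrounds at the 75th and 95th percentile. Added after seeing the data were the mean over all probe sets without a filter and a background that includes olfactory receptor pseudogenes. That wider background was computed first and was then replaced by the reported one, which leaves pseudogenes out, when member values were already known. The steps were tested on simulated signals. The work used matplotlib 3.10.9, statsmodels 0.14.6, pandas 2.3.3, numpy 2.4.6 and Python 3.11.15.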

Additional observations from a re-analysis of the deposited data

How the results depend on the processing

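No paired analysis was possible because a single array stands for either condition, which also means that none could be left out. The count of member genes at least 2-fold higher was 1 under every alternative run except the filter at the 75th percentile, which left 3 member genes and gave 0, since the mean signal of IL11 lies under it. The count of lower member genes was 0 except without a filter, with 2 of 9 (OSMR and JAK2, whose signals lie under or near background), and with the filter on the olfactory receptor level, with 1 of 8 (JAK2). Over all genes, counts beyond 2-fold were 3456 on the higher side and 1983 on the lower side without a filter, 513 and 415 with the filter at the 75th percentile, and 3461 and 1777 as the mean over all probe sets without a filter, against 1267 and 651 as reported. The log2 ratio of IL6ST was -0.99 as the mean over all 7 probe sets, dim ones included. The number of member probe sets with both signals above background was 15 as reported, 14 with the background at the 95th percentile and 15 at the 75th. With pseudogenes among the 135 olfactory receptor probe sets, the background was 195 with IRX1::GFP and 148 in the GFP control and the number again 15, the bound for IL11 was 3.42-fold, and the single JAK2 signal reported as above background was no longer above it. Taken against the other levels, which was done after the data were seen, the bound for IL11 was 5.29-fold at the 75th percentile, 2.98-fold at the 95th and 2.77-fold at the floor.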

Other observations

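The RNAs that lie beside members were within 2-fold. LIF-AS2, an antisense RNA named after LIF, read 523 with IRX1::GFP and 645 in the GFP control, 1.23-fold lower, while LIF was 1.41-fold higher. IL6ST-DT, a divergent transcript named after IL6ST, read 240 with IRX1::GFP and 193 in the GFP control, 1.24-fold higher, while IL6ST was 1.39-fold lower. In both pairs the neighbour had the opposite sign of the coding gene. Its log2 ratios, -0.30 and 0.31, were smaller in size than the SD of 0.49 among probe sets of a gene, so nothing is read from the signs.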
